A study of Mus musculus with 30 samples.

Results

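The interferon-inducible GTPases were followed through 30 RNA libraries of bone marrow-derived dendritic cells (BMDCs). The set comprised 9 genes, 5 of the guanylate-binding protein family (Gbp2, Gbp3, Gbp5, Gbp7 and Gbp9) and 4 of the immunity-related GTPase family (Irgm1, Irgm2, Igtp and Iigp1), out of 43629 genes in the deposited count table. They were picked by symbol, and 8 of the 9 had a row of their own. Gbp5 had none, because the row of ENSMUSG00000040264, which carries the symbol Gbp2b, covers both genes. This row is given separately as the Gbp2b row. Iigp1 had too few reads to pass the filter on low counts, which left 7 members in each of the 12 comparisons.

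WT BMDCs came from C57BL/6J mice and Cacnb3-/- BMDCs from C57BL/6N mice lacking Cacnb3, the gene of the beta3 subunit of voltage-gated calcium channels, so that genotype and substrain cannot be told apart. Bone marrow of young adult mice of both sexes was grown with granulocyte-macrophage colony-stimulating factor (GM-CSF), for 6 days before the experiment. Each genotype had 5 numbered cultures, and each culture gave 1 library of each of 3 sets, named ctrl, 0p5h and 24h. The sets belong to an experiment with a 30-min pulse of 500 µM ATP, and the 24h libraries were taken 24 hours later. No library is labelled as taken at 24 hours without ATP. In comparisons with 24h, ATP and time in culture therefore cannot be told apart. The sample labels disagree for the other sets: the treatment field of the ctrl libraries reads 30 min of ATP and that of the 0p5h libraries reads vehicle. The sets are therefore called by their names, and which of ctrl and 0p5h had received ATP was not settled. Nothing states that a culture number stands for 1 animal, so p-values measure the spread between these cultures.

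Libraries held from 8237393 to 32164225 assigned reads, with the lowest median in Cacnb3-/- 24h (11986891). Mitochondrial genes took 0.706 to 5.61% of the reads in the WT libraries and 2.16 to 16.5% in the Cacnb3-/- libraries, with medians of 5.23% in ctrl, 5.13% in 0p5h and 10.5% in 24h of Cacnb3-/- BMDCs. Cacnb3 itself was counted in every library. Averaged over its 3 libraries, each WT culture had 1190 to 1610 counts per 1000000 of the TMM-scaled library size (CPM) and each Cacnb3-/- culture 871 to 1080 CPM. These culture means were lower without overlap but far from 0. Single libraries overlapped in ctrl (WT from 1170, Cacnb3-/- up to 1330 CPM) and in 0p5h (WT from 1050, Cacnb3-/- up to 1330 CPM). In 24h they were barely apart (WT from 1330, Cacnb3-/- up to 1320 CPM). Which exons the deletion removed was not analysed here, so these counts do not check the label. The 10 dendritic cell markers summed to between 15700 and 40500 CPM per library. The 10 T and NK cell markers summed to at most 22.1 CPM, almost all of it Cd8a, while the T cell marker Cd3e had at most 5 reads and the NK cell marker Ncr1 at most 3 reads in any library.

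GBPs are large, dynamin-like GTPases that assemble on pathogen-containing vacuoles and on cytosolic bacteria and help to expose them to autophagy proteins and inflammasomes. Among the IRGs, Irgm1, Irgm2 and Igtp (also called Irgm3) are regulators that sit on the cell's own membranes and keep effector IRGs such as Iigp1 inactive there. Both families are induced by interferon gamma, whose signal acts at GAS elements and through IRF1, and by type I interferons through the ISGF3 complex, which contains STAT2 and IRF9 and binds interferon-stimulated response elements (ISREs).

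The 250 bases upstream of the annotated start were taken from RefSeq (GRCm38.p6) for 7 members, as 8 promoters, since Gbp3 has a pair of starts. They were searched on both strands for an ISRE core, written GAAA, then any 2 bases, then GAAA, and for a GAS, TTCNNNGAA. The other members, Gbp9 and Iigp1, were not searched. The ISRE core was found in 7 of the 7 genes searched and in 7 of 8 promoters, against 2.977% of all 32851 promoters of this length. A GAS was found in 4 genes, Gbp5, Gbp7, Irgm2 and Igtp, against 7.02% of all promoters, and both motifs together were in 0.332%. These matches are a description of letters, not of binding. The members were picked as interferon-inducible genes, so their motif counts are no independent evidence. The promoters of the members on which the expression results turn, and of Gbp7, which holds more than 1 GAS, read 5′ to 3′ on the gene's strand as follows, with motif matches in capitals:
Irgm1, chr11:48871421-48871670, reverse strand: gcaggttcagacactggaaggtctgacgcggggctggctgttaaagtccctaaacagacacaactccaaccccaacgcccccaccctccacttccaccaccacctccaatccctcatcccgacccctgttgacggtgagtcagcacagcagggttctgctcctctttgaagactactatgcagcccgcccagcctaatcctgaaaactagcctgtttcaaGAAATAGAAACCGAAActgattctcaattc
Irgm2, chr11:58214727-58214976, forward strand: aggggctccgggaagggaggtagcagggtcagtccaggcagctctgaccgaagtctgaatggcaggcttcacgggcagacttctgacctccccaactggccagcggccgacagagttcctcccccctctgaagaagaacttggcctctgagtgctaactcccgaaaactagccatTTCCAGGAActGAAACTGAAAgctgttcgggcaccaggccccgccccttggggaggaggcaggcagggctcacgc
Igtp, chr11:58199306-58199555, forward strand: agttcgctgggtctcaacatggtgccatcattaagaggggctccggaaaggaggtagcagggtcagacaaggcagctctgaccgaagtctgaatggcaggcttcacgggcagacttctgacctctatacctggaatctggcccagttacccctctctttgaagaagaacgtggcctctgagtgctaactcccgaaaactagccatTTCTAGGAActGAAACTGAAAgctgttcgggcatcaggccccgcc
Gbp2, chr3:142620413-142620662, forward strand: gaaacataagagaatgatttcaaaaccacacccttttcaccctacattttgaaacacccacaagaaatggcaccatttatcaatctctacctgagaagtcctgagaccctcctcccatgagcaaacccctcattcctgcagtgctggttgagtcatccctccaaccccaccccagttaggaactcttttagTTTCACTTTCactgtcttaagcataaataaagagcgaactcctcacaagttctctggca
Gbp7, chr3:142530086-142530335, forward strand: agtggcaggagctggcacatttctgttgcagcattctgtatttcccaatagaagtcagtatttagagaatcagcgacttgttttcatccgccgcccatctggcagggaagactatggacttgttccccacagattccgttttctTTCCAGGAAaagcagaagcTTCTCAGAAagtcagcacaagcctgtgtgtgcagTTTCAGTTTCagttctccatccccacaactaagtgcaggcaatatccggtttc

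**Figure D1:**
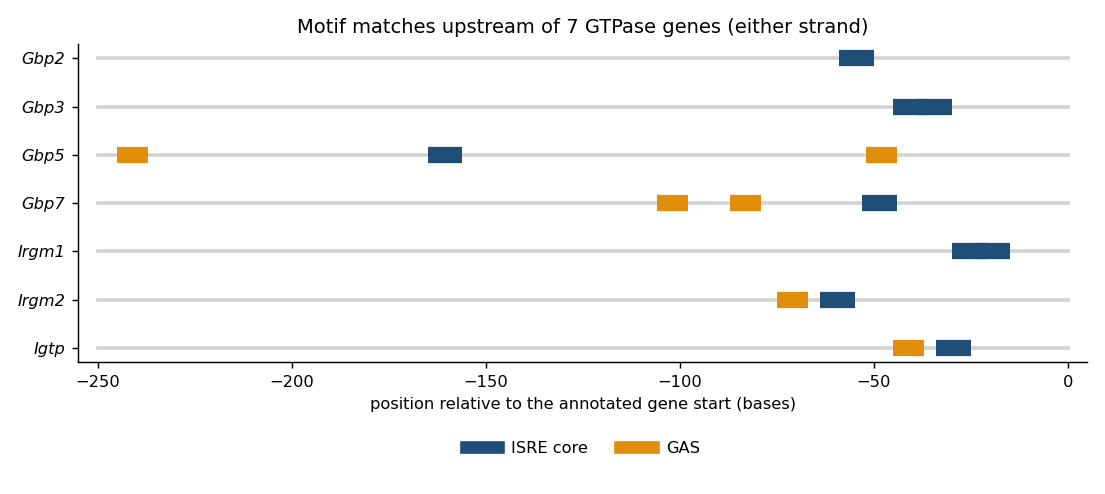
Positions of the ISRE core (blue) and GAS (orange) matches, in bases relative to the annotated start, in the first promoter of 7 GTPase genes. The ISRE core lies between -64 and -15 in Gbp2, Gbp3, Gbp7, Irgm1, Irgm2 and Igtp and starts at -165 in Gbp5.

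In Irgm2 and Igtp, which neighbour each other on chromosome 11, the GAS and the ISRE core stand in the same order, with the GAS starting at -75 and -45 and the ISRE core at -64 and -34. In Irgm1, also on chromosome 11, and in the first promoter of Gbp3, 2 ISRE cores overlap. The windows of Igtp and Gbp7 lie just upstream of their rows in the count table, that of Gbp2 overlaps the first bases of its row, and those of Irgm1 and Irgm2 lie inside theirs. Gbp2, Gbp3 and Gbp7 lie in 1 cluster on chromosome 3, from 142530338 to 142638008 on GRCm38, and Gbp9 lies on chromosome 5, from 105078394 to 105139539. Irgm1 spans 48861968 to 48871683, Igtp 58199556 to 58207591 and Irgm2 58199618 to 58222779 of chromosome 11. The rows of Igtp and Irgm2 share 162 exonic bases, 8.0% and 4.5% of each. Reads on bases shared by several rows were not assigned under the counting options used, and reads that align to several of these related genes may also be missing.

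Gbp2 was the most abundant member. In WT ctrl libraries it reached 83.9 CPM per kilobase of gene length, a scale that allows genes to be compared, against 10.7 for Gbp3, 8.26 for Gbp9, 6.49 for Irgm1, 5.21 for Igtp, 4.21 for Irgm2, 1.35 for Gbp7 and 0.0827 for Iigp1 (means of 5 cultures). Gbp2 lay above Gbp3 without overlap of the cultures in 6 of 6 groups, and Gbp7 lay below Irgm2 and above Iigp1 without overlap in 6 of 6 groups. From Gbp3 down to Irgm2, neighbours in this order overlapped in every WT group, and in Cacnb3-/- BMDCs they overlapped except Gbp9 and Igtp in 0p5h and Gbp3 and Gbp9 in 24h. In Cacnb3-/- BMDCs Igtp stood above Irgm1 in ctrl and 0p5h and below it in 24h, each time with overlapping cultures.

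**Figure D2:**
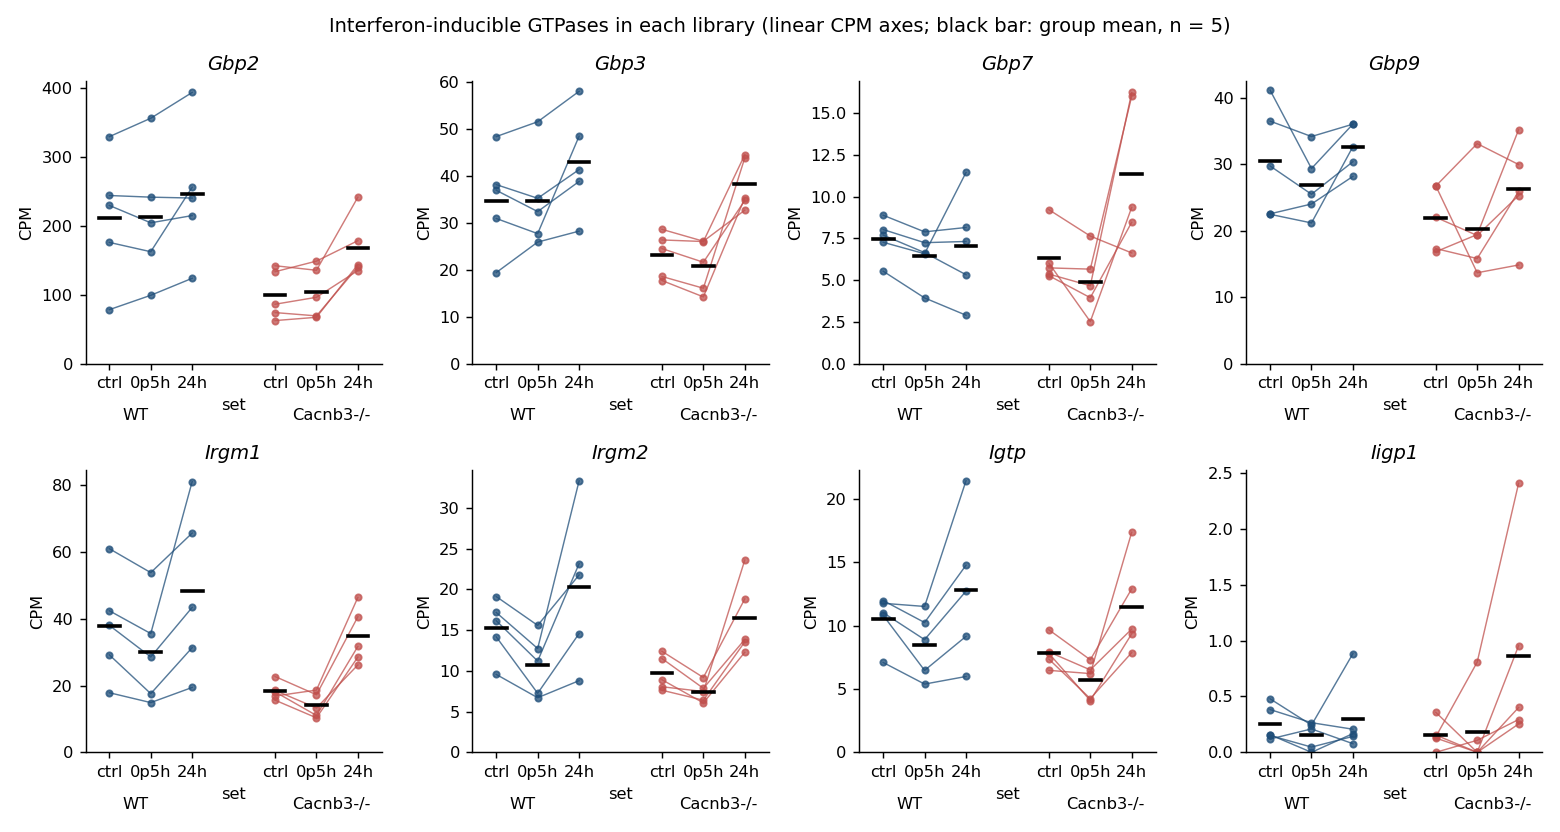
CPM of each member in each library (linear axes), with lines joining the 3 libraries of a culture, WT in blue and Cacnb3-/- in red, and black bars for the means of 5. In Cacnb3-/- BMDCs, Irgm1, Irgm2, Igtp and Gbp3 have every 24h library above every 0p5h library. The share of all genes apart in this way was not counted. WT cultures differ widely in every set, Gbp2 for example from 78.2 to 329 CPM in ctrl.

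The clearest difference among the sets was between 0p5h and 24h in Cacnb3-/- BMDCs, where the IRG regulators Irgm1 and Irgm2 rose. Irgm1, which is needed for resistance to intracellular pathogens, had 18.7, 17.3, 11.04, 10.3 and 13.3 CPM in the 0p5h libraries of cultures p974s843, p974s851, p974s852, p974s853 and p974s865, and 46.4, 40.6, 31.8, 28.6 and 26.2 CPM in their 24h libraries. All 24h values lay above all 0p5h values, though the share of all genes apart in this way was not counted. In bulk RNA more expressing cells and more RNA per cell cannot be told apart. The rise was 2.52-fold (log2 fold change 1.33, standard error (SE) 0.22, n = 5 and 5, adjusted p = 0.0162 by edgeR's quasi-likelihood test with Benjamini-Hochberg adjustment over all genes tested). Irgm2 had 7.46, 9.18, 6.07, 6.395 and 7.86 CPM in 0p5h and 23.6, 18.8, 12.3, 13.6 and 13.9 CPM in 24h, in the same order of cultures. These values did not overlap either, and the rise was 2.27-fold (log2 fold change 1.18, SE 0.21, adjusted p = 0.0237 by the same test).

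Igtp, the third regulator, had 6.22, 7.31, 4.24, 4.09 and 6.51 CPM in 0p5h and 17.4, 12.9, 7.87, 9.36 and 9.74 CPM in 24h of these cultures. Its groups were apart as well, but its log2 fold change of 1.04 (SE 0.25) did not pass the test (adjusted p = 0.0861 by edgeR with Benjamini-Hochberg adjustment). The shares of all genes apart in this way, or higher in 5 of 5 cultures, were not counted. Among the GBPs, Gbp3 had 16.04, 25.98, 21.6, 14.2 and 26.04 CPM in 0p5h and 43.8, 44.5, 34.7, 35.3 and 32.7 CPM in 24h. It passed the adjusted p alone, at 0.0475 by the same test, with a log2 fold change of 0.91 (SE 0.19) below the 2-fold minimum. Gbp7 had 4.66, 5.66, 3.95, 2.52 and 7.64 CPM in 0p5h and 16.2, 16.02, 8.47, 9.36 and 6.63 CPM in 24h. It was higher in 24h in 4 of 5 cultures and lower in p974s865, with a log2 fold change of 1.24 (SE 0.33, adjusted p = 0.114 by the same test). Gbp2 had 67.2, 135, 96.1, 69.2 and 149 CPM in 0p5h and 144, 241, 135, 140 and 178 CPM in 24h. It was higher in 24h in 5 of 5 cultures, with overlapping groups (log2 fold change 0.73, SE 0.24, adjusted p = 0.197 by the same test), and Gbp9 (0.40, SE 0.26, adjusted p = 0.412 by the same test) in 4 of 5.

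In all, 2 of 7 tested members were called at an adjusted p under 0.05 and at least 2-fold, where 0.660% of 12730 genes were, and 3 of 7 passed the adjusted p alone, where 0.880% did. The median log2 fold change of the 7 was 1.04, against -1.5e-06 over all genes tested. With the culture as a replicate block, which the culture numbers allowed here, 4 of 7 were called, Irgm1, Irgm2, Igtp and Gbp7, against 2.88% of all genes, and 7 of 7 passed the adjusted p alone (largest 0.0397 by edgeR's quasi-likelihood test), against 28.6% of all genes. DESeq2 without a block called the same 4 members, against 1.45% of all genes. The calls by edgeR without a block depended on which culture was left out, as did those over all genes. Without p974s851, p974s852 or p974s853, 0 members were called, against 20 of 12465, 62 of 12851 and 30 of 12767 genes. Without p974s843, 1 (Irgm1) was called, against 66 of 12826 genes. Without p974s865, 4 were called, against 58 of 12465 genes. The log2 fold change of Irgm1 lay between 1.29 and 1.40 and that of Irgm2 between 1 and 1.26. The mitochondrial share had a median of 5.13% in 0p5h and 10.5% in 24h of these cultures, and was highest (16.5%) in the 24h library of p974s843, the shallowest of all. The 10 dendritic cell markers summed to 21200 to 37500 CPM in 0p5h and 15700 to 28100 CPM in 24h. The part of both in the result was not tested.

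In WT BMDCs, the 7 members were also higher on average in 24h than in 0p5h, but 0 of 7 were called, against 0.639% of all 12830 genes. An unadjusted p under 0.05 was reached in edgeR by 1 of 7, against 11.2% of all genes. Irgm2 had 12.7, 7.24, 15.6, 11.2 and 6.70 CPM in 0p5h of cultures p974s846, p974s850, p974s855, p974s856 and p974s864 and 33.3, 14.6, 21.8, 23.2 and 8.79 CPM in 24h. It was thus higher in 5 of 5 cultures, with overlapping groups (log2 fold change 0.93, SE 0.34, adjusted p = 0.311 by edgeR with Benjamini-Hochberg adjustment). Irgm1 had 35.6, 17.6, 53.9, 28.6 and 14.9 CPM in 0p5h and 81.2, 31.4, 65.7, 43.4 and 19.4 CPM in 24h of these cultures. Irgm1 (log2 fold change 0.68, SE 0.41) and Igtp (0.60, SE 0.32) were also higher in 5 of 5 cultures, as were Gbp3 (0.32, SE 0.21) and Gbp9 (0.29, SE 0.13). How many of all genes were higher in 5 of 5 WT cultures was not counted. With the culture as a replicate block, Irgm1 (adjusted p = 0.0100), Irgm2 (0.00600) and Igtp (0.0170, all by edgeR's quasi-likelihood test) passed the adjusted p alone, against 11.3% of all genes, and 0 of 7 reached 2-fold. DESeq2 called 0 of 8, Iigp1 included, against 0.994% of all genes.

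**Figure D3:**
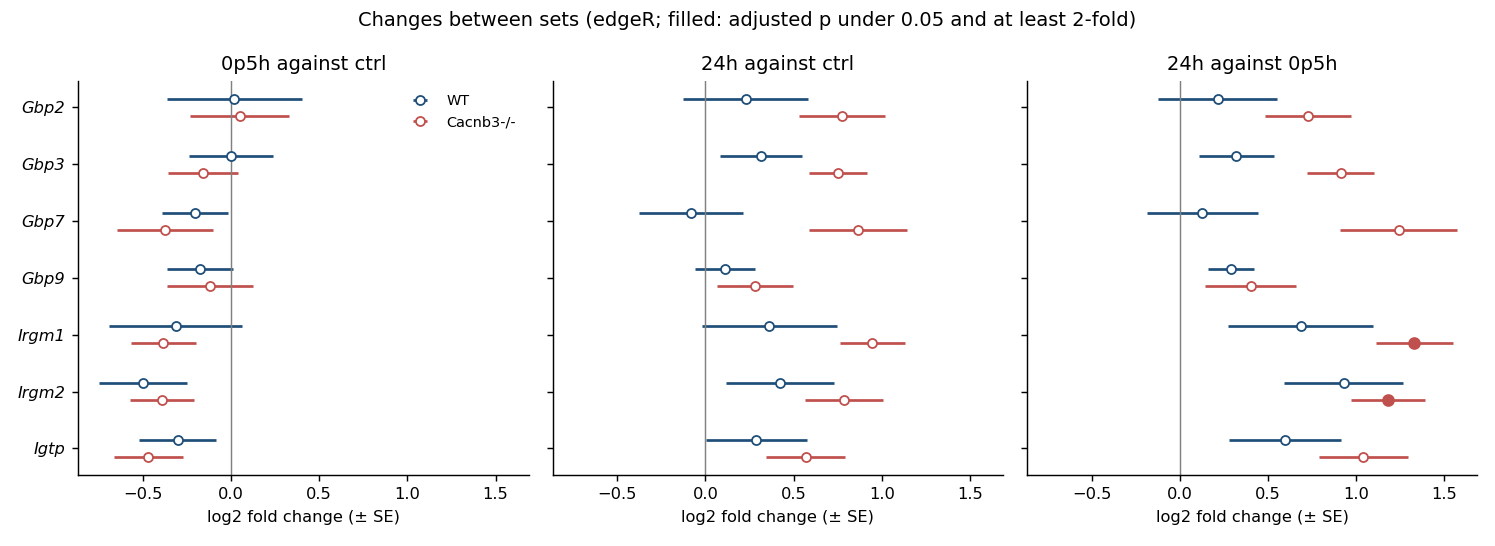
Log2 fold changes between sets with their SE from edgeR without a block, for 7 members in WT (blue) and Cacnb3-/- (red) BMDCs, 5 libraries per group. Filled points, Irgm1 and Irgm2 in the comparison of 24h with 0p5h in Cacnb3-/- BMDCs, are those at an adjusted p under 0.05 and at least 2-fold.

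Whether the change from 0p5h to 24h differed between genotypes was tested as an interaction. Its value was above 0 for 7 of 7 members, that is, towards a larger difference in Cacnb3-/- BMDCs, with a median of 0.51 on the log2 scale, against -0.01 over all genes. The largest was that of Gbp7 (1.12, SE 0.48, adjusted p = 0.680 by edgeR with Benjamini-Hochberg adjustment), and those of Irgm1 (0.64, SE 0.49), Gbp3 (0.59, SE 0.30) and Irgm2 (0.25, SE 0.41) were smaller. After removal of GC trends, that of Gbp9 turned from 0.11 to -0.17. edgeR called 0 of 7 members, against 0% of 13424 genes, and DESeq2 called 0 of 8, against 0% of all genes. An unadjusted p under 0.05 was reached in edgeR by 1 of 7, against 5.88% of all genes. With the culture as a replicate block, the median was 0.52, and the value of Irgm1 was 0.66 (SE 0.17). Under the block 5 of 7 had an unadjusted p under 0.05, against 28.4% of all genes. Again 0 of 7 were called there (smallest adjusted p = 0.108 by edgeR's quasi-likelihood test), against 1 of 13424 genes. The rise in Cacnb3-/- BMDCs is therefore not shown to differ from that in WT.

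The comparison of 24h with ctrl, which shares the 24h libraries with the one above, gave no call. In Cacnb3-/- BMDCs the 7 members had log2 fold changes from 0.28 for Gbp9 to 0.95 for Irgm1 (median 0.77, against -0.01 over all genes). Irgm1 had 16.9, 22.7, 18.1, 15.6 and 18.6 CPM in the ctrl libraries of the cultures in the order above, below each of its 24h values, and Gbp3 was apart in the same way. Here too the share of all genes so separated was not counted. edgeR called 0 of 7, against 0% of 12452 genes, although 6 of 7 had an unadjusted p under 0.05, as did 1343 genes in all. The smallest adjusted p, that of Irgm1, was 0.162 by edgeR with Benjamini-Hochberg adjustment (SE 0.18 of its log2 fold change). DESeq2 called 0 of 8, against 0.333% of all genes. Under the culture block 0 of 7 were called, against 138 of 12452 genes, and 4 of 7 passed the adjusted p alone, against 1063 genes. These were Gbp2 (0.00959), Irgm1 (0.0103), Gbp3 (0.0211) and Irgm2 (0.0374, all by edgeR's quasi-likelihood test). Same-numbered libraries correlated weakly in part (lowest 0.0578), so the numbers were not taken as pairs here. In WT BMDCs the 7 log2 fold changes ran from -0.08 for Gbp7 to 0.42 for Irgm2. By edgeR 0 of 7 were called, against 0.0152% of 13176 genes, and 0 of 7 had an unadjusted p under 0.05, against 8.39%. DESeq2 called 0 of 8 there, against 0.198% of all genes. Under the block 0 of 7 passed the adjusted p alone in WT, against 797 of 13176 genes. The interaction was above 0 for 7 of 7 members, from 0.18 for Gbp9 to 0.95 for Gbp7. By edgeR 0 of 7 were called, against 0% of 13536 genes, and by DESeq2 0 of 8, against 0% of all genes. An unadjusted p under 0.05 was reached in edgeR by 1 of 7, against 4.86% of all genes. Under the block, which uses the same Cacnb3-/- numbers, it was reached by 4 of 7, against 19.5% of all genes. There 0 of 7 were called, against 16 of 13536 genes. With the GC trend removed, the interaction of Gbp9 was -0.105.

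Between ctrl and 0p5h the IRG regulators, and Gbp7 among the GBPs, were lower in 0p5h in nearly every culture. Irgm2 had 17.2, 14.2, 19.1, 16.2 and 9.56 CPM in the WT ctrl libraries, each above the 0p5h value of the same culture given above, with overlapping groups. Its log2 fold change was -0.50 (SE 0.25) without a block. With the culture as a replicate block it was -0.52 (SE 0.09, adjusted p = 0.0067 by edgeR's quasi-likelihood test) and that of Irgm1 was -0.35 (SE 0.07, adjusted p = 0.0181 by the same test), so that 2 of 7 passed the adjusted p alone, against 5.96% of 13085 genes. Neither reached 2-fold. Without a block 0 of 7 were called in WT by edgeR, against 0.176% of all genes, or 0 of 8 by DESeq2, against 0.320% of all genes. An unadjusted p under 0.05 was reached in edgeR by 0 of 7, against 4.54% of all genes. In Cacnb3-/- BMDCs, Irgm1 was lower in 0p5h in 4 of 5 cultures and Irgm2 and Igtp in 5 of 5, with log2 fold changes of -0.39 (SE 0.19), -0.39 (SE 0.18) and -0.47 (SE 0.20). There 0 of 7 were called by edgeR, against 0.290% of 12750 genes, and 0 of 7 by DESeq2, against 0.403% of all genes. An unadjusted p under 0.05 was reached in edgeR by 2 of 7, against 3.99% of all genes. Under the block it was reached by 5 of 7, against 15.4% of all genes. Unlike in WT, 0 of 7 passed the adjusted p alone under the block (smallest 0.117 by edgeR's quasi-likelihood test), against 299 of 12750 genes. Gbp7 was lower in 0p5h in 5 of 5 cultures of each genotype, with log2 fold changes of -0.20 (SE 0.19) in WT and -0.38 (SE 0.27) in Cacnb3-/-. Gbp3 was lower in 3 of 5 WT and 5 of 5 Cacnb3-/- cultures, and Gbp9 in 4 of 5 and 3 of 5. The share of all genes lower in 5 of 5 cultures was not counted. The log2 fold change of Gbp2 was 0.02 (SE 0.38) in WT and 0.05 (SE 0.28) in Cacnb3-/-. The interaction lay between -0.16 and 0.12 for the 7 members. By edgeR 0 of 7 were called, against 0% of 13465 genes, and by DESeq2 0 of 8, against 0% of all genes. An unadjusted p under 0.05 was reached in edgeR by 0 of 7, against 0.223% of all genes.

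Cacnb3-/- BMDCs had lower mean levels than WT BMDCs of 7 of 7 tested members in ctrl and in 0p5h and of 6 of 7 in 24h, and edgeR called none of these differences. Gbp2, which is recruited to vacuoles and bacteria, had 176, 229, 329, 244 and 78.2 CPM in ctrl of the WT cultures and 62.4, 142, 86.1, 74.0 and 133 CPM in ctrl of the Cacnb3-/- cultures, each in the order given above. WT culture p974s864 lay within the range of the Cacnb3-/- cultures, and the other 4 WT cultures lay above it. The log2 fold change was -1.06 (SE 0.34, adjusted p = 0.247 by edgeR with Benjamini-Hochberg adjustment). Irgm1 had 42.4, 29.2, 61.0, 38.1 and 17.9 CPM in WT ctrl against 15.6 to 22.7 CPM in Cacnb3-/- ctrl, with the same culture inside the other range (log2 fold change -1.01, SE 0.26, adjusted p = 0.243 by the same test). Log2 fold changes of the other members in ctrl were -0.62 (SE 0.20) for Irgm2, -0.56 (SE 0.22) for Gbp3, -0.44 (SE 0.21) for Gbp9, -0.40 (SE 0.17) for Igtp and -0.21 (SE 0.19) for Gbp7. In 0p5h the log2 fold changes were -1.01 (SE 0.32) for Gbp2, -1.06 (SE 0.32) for Irgm1 and -0.70 (SE 0.22) for Gbp3, and in 24h those of Gbp2 and Irgm1 were -0.51 (SE 0.26) and -0.42 (SE 0.33). The median over the 7 members was -0.56 in ctrl, -0.55 in 0p5h and -0.26 in 24h, against 0.03, 0.02 and 0.01 over all genes tested.

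**Figure D4:**
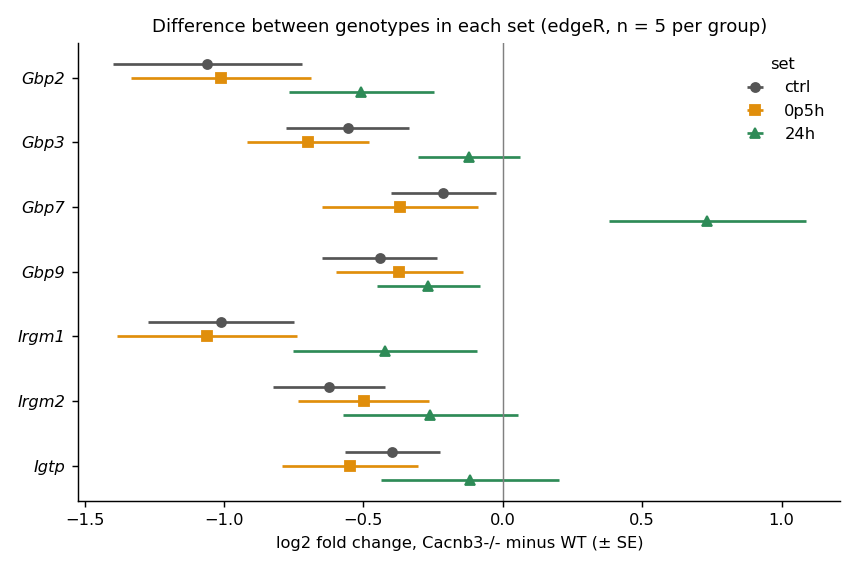
Log2 fold change of Cacnb3-/- against WT with its SE (edgeR, 5 libraries per group) for 7 members in ctrl (grey circles), 0p5h (orange squares) and 24h (green triangles). All points but that of Gbp7 in 24h (0.73) lie below 0, and none passed the test.

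In ctrl, 0 of 7 members were called by edgeR, against 0% of 13022 genes, with 5 of 7 at an unadjusted p under 0.05, as did 2161 genes in all. DESeq2 called 1 of 7, Irgm1 (log2 fold change -1.02, adjusted p = 0.0259 by DESeq2), against 1.02% of all genes. Without WT culture p974s864, edgeR called 2 of 7, Irgm1 (-1.18, SE 0.20, adjusted p = 0.0169 by edgeR) and Gbp2 (-1.26, SE 0.26, adjusted p = 0.0309 by edgeR), against 1.88% of all genes. In 0p5h, 0 of 7 were called by edgeR, against 0% of 12806 genes, and 0 of 7 by DESeq2, against 0.588% of all genes. An unadjusted p under 0.05 was reached in edgeR by 4 of 7, against 16.4% of all genes. In 24h, 0 of 7 were called by edgeR, against 0% of 12706 genes, and 0 of 8 by DESeq2, against 4.74% of all genes, with 0 of 7 at an unadjusted p under 0.05 in edgeR, as against 4877 genes in all. Gbp7 was the exception to the direction in 24h, with 2.90 to 11.45 CPM in WT and 6.63 to 16.2 CPM in Cacnb3-/- BMDCs (log2 fold change 0.73, SE 0.35, adjusted p = 0.144 by edgeR with Benjamini-Hochberg adjustment). The median mitochondrial share was 1.53% in WT and 5.23% in Cacnb3-/- ctrl libraries, 1.98% and 5.13% in 0p5h, and 2.56% and 10.5% in 24h, and its part was not tested. Sequencing lanes were not evenly split between the genotypes. With lane as a covariate, a setting chosen after seeing the data, edgeR called 0 of 7 in each set.

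Iigp1, an effector IRG that attacks the vacuole of Toxoplasma, was barely detected. It had 0 to 19 reads per library and 155 reads in the 30 libraries, of which 78 were in 24h libraries, and the filter on low counts left it out of all 12 comparisons as reported. No read was counted in 5 libraries, which with 3 reads as the limit that a count of 0 allows means a level of up to 0.129 to 0.219 CPM, for counting error only. In Cacnb3-/- BMDCs it was at 0 to 0.358 CPM in ctrl, 0 to 0.808 CPM in 0p5h and 0.254 to 2.41 CPM in 24h, and in WT BMDCs at 0 to 0.884 CPM over all sets. The 24h library was above the 0p5h library in 5 of 5 Cacnb3-/- and 3 of 5 WT cultures. The highest value, 2.41 CPM from 19 reads, came from culture p974s843.

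The Gbp2b row spans 142496934 to 142619179 on chromosome 3 and 5844 exonic bases, of which 3021 (51.7%) fall within the RefSeq span of Gbp5, from 142496934 to 142522344. Gbp5 promotes assembly of the NLRP3 inflammasome, and Gbp2b is also known as Gbp1. The row reads as a mixture of both genes and cannot be assigned to either. It stood at 87.3 ± 49.2 CPM in WT ctrl, 80.7 ± 42.5 in WT 0p5h, 93.0 ± 37.7 in WT 24h, 36.02 ± 11.6 in Cacnb3-/- ctrl, 35.3 ± 10.1 in Cacnb3-/- 0p5h and 72.7 ± 25.1 in Cacnb3-/- 24h (SD, n = 5). Its log2 fold change from 0p5h to 24h was 1.07 (SE 0.26, adjusted p = 0.0819 by edgeR with Benjamini-Hochberg adjustment) in Cacnb3-/- and 0.21 (SE 0.38) in WT. With the culture as replicate block the row was called in Cacnb3-/- BMDCs (1.06, SE 0.12, adjusted p = 0.000204 by edgeR). In the ctrl libraries, Cacnb3-/- BMDCs differed from WT by -1.24 (SE 0.41, adjusted p = 0.248 by the same test).

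The lists that follow were chosen with results of these data known and are no independent evidence. Of 18 other Gbp and Irg family genes on a list that includes this row, 14 had a row and between 7 and 11 could be tested. Without a block, edgeR called 0 of them in each of the 12 comparisons. From 0p5h to 24h in Cacnb3-/- BMDCs, 5 of 7 tested genes were higher, with a median log2 fold change of 0.81. With the culture as replicate block, 3 of 7 were called and 7 of 7 passed the adjusted p alone, against 2.88% and 28.6% of all genes. The higher genes included Ifi47 (0.99, SE 0.25, adjusted p = 0.0976 by edgeR), also known as Irgd, and Gm12250 (1.63, SE 0.47, adjusted p = 0.142 by edgeR), also known as Irgb10. Irgc, a family member that is not induced by interferon, stood at -1.74 (SE 0.44, adjusted p = 0.105 by edgeR). Without a block, 0 of 9 tested genes of the interferon gamma receptor, JAK-STAT and IRF list were called, against 0.660% of all genes. Of the 9, 5 were higher, with a median of 0.06. Under the block 0 were called and 5 passed the adjusted p alone, against 2.88% and 28.6% of all genes. Irf1 stood at 0.51 (SE 0.27), the receptor chain gene Ifngr1 at -0.50 (SE 0.23) and the inhibitor Socs1 at -0.79 (SE 0.25). Ifng itself had at most 2 reads in a library and none in 24 of 30.

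The type I interferon side was examined in the same comparison. Of 8 tested type I interferon and ISGF3 genes, 0 were called, against 0.660% of all genes, and 2 passed the adjusted p alone, against 0.880%. These were the ISGF3 subunits Irf9 (0.85, SE 0.13, adjusted p = 0.0102) and Stat2 (0.62, SE 0.12, adjusted p = 0.0366, both by edgeR with Benjamini-Hochberg adjustment). In all, 4 of the 8 were higher and 4 lower, with a median of 0.21. Under the block 1 was called and 6 passed the adjusted p alone, against 2.88% and 28.6% of all genes. Ifnb1 was not tested, with at most 11 reads in a library. All 16 type I interferon-induced genes were higher, with a median log2 fold change of 1.66, and 1 was called, Ifit1, an RNA-binding antiviral protein (2.81, SE 0.58, adjusted p = 0.0469 by the same test). Cmpk2 (2.19, SE 0.47), Rtp4 (2.16, SE 0.46) and Oas2 (1.87, SE 0.42) had adjusted p-values of 0.0538, 0.0537 and 0.0631 by edgeR. Under the block 11 of the 16 were called and 15 passed the adjusted p alone, against 2.88% and 28.6% of all genes. In WT all 16 were higher as well, against 50.9% of all genes, with a median of 0.41, against 0.00519. Without the block 0 were called in WT, against 0.639% of all genes, and with it 1, against 228 of 12830 genes. Between genotypes in ctrl, 14 of 16 were lower in Cacnb3-/- BMDCs, with a median of -1.91, against 0.0263 over all genes. None of the 16 was called there, against 0% of all genes. Of 9 tested interferon gamma-induced genes, 0 were called from 0p5h to 24h in Cacnb3-/- BMDCs, against 0.660% of all genes. Of these 9, 4 were higher, with a median of -0.05. Nlrc5, the activator of MHC class I genes, stood at 0.90 (SE 0.21, adjusted p = 0.0780 by edgeR). Under the block 0 of the 9 were called and 3 passed the adjusted p alone, against 2.88% and 28.6% of all genes.

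Genes that act with the GTPases at vacuoles and downstream of them were taken from the same comparison. None of the 10 autophagy conjugation genes was called in Cacnb3-/- BMDCs, against 0.660% of all genes (4 higher, median -0.13, smallest adjusted p = 0.0759 by edgeR for Gabarapl1). Under the block 0 were called and 6 passed the adjusted p alone, against 2.88% and 28.6% of all genes. Among 8 inflammasome genes, 1 was called, against 0.660% of all genes. It was Il1b, lower in 24h than in 0p5h (-1.68, SE 0.32, adjusted p = 0.0353 by edgeR). Casp4, which encodes caspase-11, the sensor of cytosolic lipopolysaccharide, passed the adjusted p alone (0.90, SE 0.16, adjusted p = 0.0218 by edgeR). With Il1b, 2 of the 8 passed it, against 0.880% of all genes. Under the block 2 of the 8 were called and 4 passed the adjusted p alone, against 2.88% and 28.6% of all genes. In WT, Nlrp3 alone of the 8 was called, against 0.639% of all genes, as lower in 24h than in 0p5h (-1.86, SE 0.22, adjusted p = 0.00162 by edgeR). In Cacnb3-/- BMDCs Il1b alone was called, against 0.290% of all genes, as higher in 0p5h than in ctrl (2.17, SE 0.34, adjusted p = 0.0176 by edgeR). No other listed gene was called by edgeR without a block in the set comparisons. Without a block, markers of other cells did not pass the test between 0p5h and 24h in Cacnb3-/- BMDCs. Of these, 0 of 8 macrophage, 0 of 7 granulocyte and 0 of 4 B cell and plasmacytoid dendritic cell markers were called, against 0.660% of all genes. The dendritic cell markers had a median of -0.31, with 2 of 10 higher and 0 called. Under the block 0 of these markers were called, but 7 of 10 dendritic cell, 3 of 8 macrophage and 1 of 7 granulocyte markers passed the adjusted p alone, against 28.6% of all genes.

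The members varied together across the libraries, as a description over 30 libraries that share cultures. On log2(CPM + 1), Irgm2 and Igtp had a correlation of r = 0.959, Irgm1 and Irgm2 of 0.944 and Gbp2 and Gbp3 of 0.928, while Gbp9 and Gbp7 had 0.138. The mean standardized level of the 7 members, averaged over the 3 libraries of each culture, was highest in the WT cultures p974s855 (1.17 SD units) and p974s846 (0.848) and lowest in Cacnb3-/- culture p974s853 (-0.779) and WT culture p974s864 (-0.775). The 10 genes outside the members with the highest correlation with this mean, of 13717 compared, were Irf9 (r = 0.946), Ifi47 (0.944), Phf11b (0.929), Ifih1 (0.929), Ddx60 (0.925), Trim21 (0.920), Parp14 (0.920), Ifit1bl1 (0.910), Trim30a (0.909) and Slfn8 (0.908). Over the means of the 10 cultures, these correlations lay between 0.877 for Slfn8 and 0.984 for Phf11b.

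**Figure D5:**
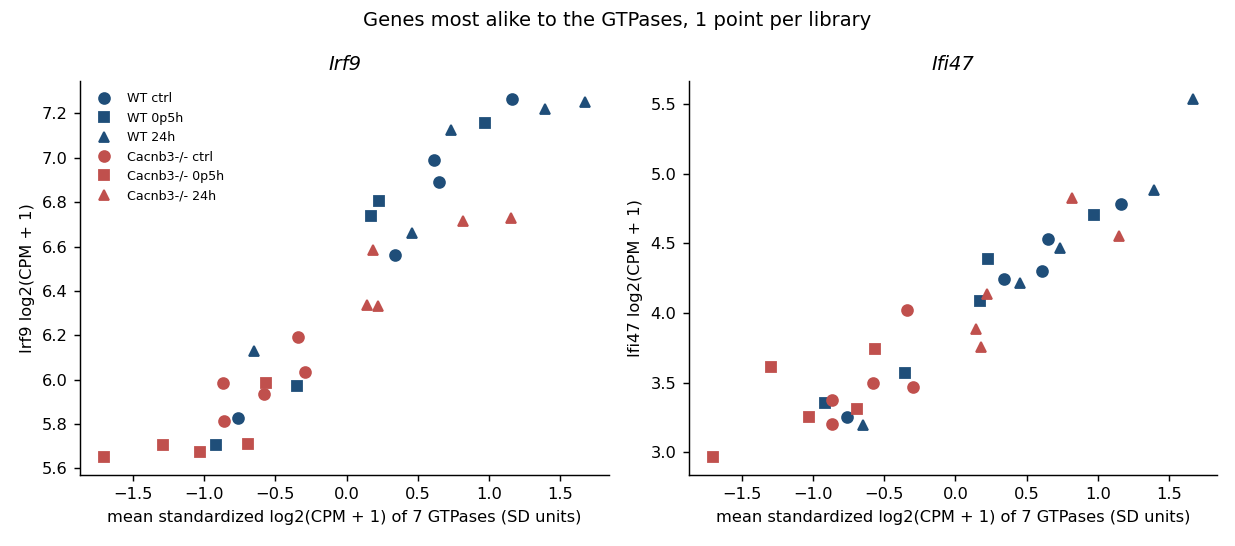
Irf9 (left) and Ifi47 (right) in log2(CPM + 1) against the mean standardized level of 7 members in SD units, with 1 point per library, WT in blue and Cacnb3-/- in red, and circles, squares and triangles for ctrl, 0p5h and 24h. The points of both genes slope upward over all 30 libraries (r = 0.946 and 0.944), which share 10 cultures.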

How the data were processed

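RNA of 30 BMDC libraries was sequenced, 5 cultures of each genotype in 3 sets. The authors deposited 1 table of read counts per gene, made per the file headers with featureCounts 1.5.1 from STAR 2.4 alignments of read 1 against the exons of Ensembl release 79 (GRCm38), without strand or multi-mapping options, and with the summed exon length of each gene in bases as a further column. GRCm39 and paired-end sequencing are given in the methods instead, and coordinates here are those of GRCm38. All 30 columns were mapped to samples by library name, and 0 were left unused. Totals ran from 8237393 to 32164225 reads.

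Symbols were found for 89.4% of 43629 identifiers. Genes were filtered by filterByExpr, scaled by TMM and tested by edgeR 4.0.16 (R 4.3.3) with the quasi-likelihood test within the libraries compared, with Benjamini-Hochberg adjustment over all genes tested. Calls needed both 2-fold or more and an adjusted p below 0.05. CPM were computed by edgeR on library sizes scaled by TMM over all libraries. Alternatives were DESeq2 1.42.0, its size factors in edgeR, no filter, dropping the fold minimum, a joint fit of all libraries, removal of a GC trend, each culture left out, the culture as replicate block and, added after seeing the data, lane. The code was tested on simulated data.

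Culture numbers, given in the library names, were checked as pairs over 13724 genes. Deviations from group means of same-numbered libraries correlated at 0.302 to 0.904, except between ctrl and 24h of Cacnb3-/- BMDCs (lowest 0.0578). There the block is given as an alternative only.

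The members and lists were chosen with earlier results of these data known. All members are named, and of each list every called gene and up to 4 with the smallest adjusted p. Genes alike to the members were the 10 with the highest correlation. The values of 1 listed gene are not reported here.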

Additional observations from a re-analysis of the deposited data

Results flagged for a closer look

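In 4 of 48 combinations of a member and a group of 5 libraries, 1 library lay far from the others. Chance gives about 1 in 20 for independent, normally distributed values. The members vary together and the values were linear CPM, so this rate is only a rough guide. The gap to the nearest library, as a share of the whole range, was 0.81 for Gbp7 in Cacnb3-/- ctrl, where culture p974s865 had 9.22 CPM and the next 6.02 CPM. It was 0.761 for Igtp in WT ctrl, where culture p974s864 had 7.10 CPM and the next 10.8 CPM. For Iigp1 it was 0.867 in Cacnb3-/- 0p5h (p974s843, 0.808 against 0.108 CPM) and 0.839 in WT 24h (p974s846, 0.884 against 0.207 CPM), both at few reads.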

How the results depend on the processing

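Across the alternatives that keep all cultures, 80 counts of called members were within 1.5 times the reported count and 4 were not: from 24h against 0p5h in Cacnb3-/- BMDCs, 4 members were called in place of 2 by DESeq2, with all 30 libraries in one fit and with the culture as replicate block, and Cacnb3-/- against WT in ctrl gave 1 in place of 0 by DESeq2. Leaving out 1 culture gave 0 to 4 in the first comparison and 0 to 2 in the second, and 0 to 0 in all others. The block gave 0 calls in each other comparison of sets and each interaction. For 24h against ctrl in Cacnb3-/- BMDCs, where the numbers were not taken as pairs, 4 of 7 passed the adjusted p alone under the block, as did 1063 of 12452 genes, and the Gbp2b row was called (1.04, adjusted p = 0.00266 by edgeR). Over all genes, Cacnb3-/- against WT in 24h gave 0 calls by edgeR, 606 by DESeq2 and 615 with all libraries in one fit. The cause was not tested.

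Of the log2 fold changes, 409 kept direction and side of the threshold, 7 came past it and 4 turned: Gbp3 from ctrl to 0p5h in WT (-0.00987 with all libraries in one fit, -0.00963 with the GC trend removed) and the interactions of Gbp9 for 24h against ctrl (-0.105) and 24h against 0p5h (-0.169), both with the GC trend removed. Leaving out 1 culture, 602 kept both, 4 came past the threshold, 7 fell short of it and 17 turned. The ranges of those that turned were -0.234 to 0.0126 for Gbp3 and -0.326 to 0.142 for Igtp between genotypes in 24h, -0.0259 to 0.049 for Gbp2 and -0.0564 to 0.0318 for Gbp3 from ctrl to 0p5h in WT, -0.335 to 0.0352 for Gbp7 from ctrl and -0.114 to 0.217 from 0p5h to 24h in WT, and -0.287 to 0.0704 for Gbp9 from ctrl to 0p5h in Cacnb3-/-. Among interactions they were -0.00559 to 0.0947 for Gbp2, -0.0989 to 0.256 for Gbp9 and -0.216 to 0.0155 for Irgm1 for 0p5h against ctrl, and for Gbp9 -0.0167 to 0.399 for 24h against ctrl and -0.0241 to 0.298 for 24h against 0p5h. None of these was called. Depth limits Iigp1 most.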
